A study of Rattus norvegicus with 15 samples.

Results

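The genes described here code for enzymes and proteins that make and use glutathione, run the thioredoxin system or remove peroxides and superoxide. They were chosen by the symbol in the probe table of the array platform: every glutathione transferase of the alpha, kappa, mu, omega, pi, theta or zeta class, every symbol that starts with Gpx, Prdx or Txn, and Gclc, Gclm, Gsr, Gss, Nqo1, Hmox1, Sod1, Sod3, Cat and Srxn1. This gave 62 probes for 58 genes, out of 13337 genes with a named probe. Where a gene had several probes, its brightest on average was used. The rule uses names and the mean signal over all 15 arrays, not changes between days.

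Rat alveolar epithelial type 2 (AT2) cells from male animals were placed in culture with no added treatment and left to differentiate towards an alveolar type 1-like (AT1-like) phenotype. Total RNA from freshly isolated AT2 cells (D0), from cells in culture at D2, D4 and D6, and from AT1-like cells at D8 was hybridised to Illumina rat arrays, 3 arrays per day and 15 in all. The labels give no strain, age or genotype, and they do not say which cell purification an array holds, so p-values measure the spread between arrays. On each day 2 arrays lie on slide 1 and the remaining one lies on slide 2 (D2 and D4) or slide 3 (D0, D6 and D8). Slide and purification cannot be told apart. Arrays are named by slide and position. The order used below is s1H, s1I and s3A at D0, s1C, s1D and s2A at D2, s1E, s1K and s2F at D4, s1A, s1B and s3D at D6, and s1G, s1J and s3I at D8.

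Glutathione is made from glutamate, cysteine and glycine, with glutamate-cysteine ligase as the rate-limiting step. Glutathione peroxidases and peroxiredoxins use glutathione or thioredoxin to reduce peroxides, glutathione transferases join glutathione to reactive electrophiles, and reductases that use NADPH restore both cofactors. NRF2 is a transcription factor that KEAP1 holds at a low level in unstressed cells, and many of these genes are known targets of it through a promoter sequence called the antioxidant response element. The alveolar epithelium faces high oxygen, and the fluid that lines it is rich in glutathione.

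Signals were put on a log2 scale by variance-stabilising normalisation (VSN), and a probe was called detected on an array at a detection p under 0.01. Each array detected 7615 to 9787 probes, and the lowest detected signal was 6.07 to 7.004 on the log2 scale. Changes between days were tested with limma and passed where the p, adjusted over 22523 probes by Benjamini and Hochberg's method, was 0.05 or less. The summed AT2 marker signal was 17.81 to 18.09 on the log2 scale at D0 and 14.01 to 14.56 at D8, with all 7 measured markers detected on each D0 array. The AT1 sum was 15.67 to 15.76 at D0 and 16.52 to 16.89 at D8. Markers of other cells moved as well. The sum over 7 fibroblast markers was 11.23 to 11.66 at D0 and 13.56 to 15.81 at D8, where 3 of them passed as higher and 4 did not pass. Acta2 and Pdgfrb, also listed for fibroblasts and smooth muscle, were not measured. The sum over 6 airway markers was 15.60 to 15.78 at D0 and 10.88 to 12.39 at D8. The sum over 5 erythroid markers was 15.07 to 15.86 at D0 and 7.69 to 9.83 at D8, with Alas2 and Epb42 detected at neither day. The macrophage sum was 14.82 to 15.15 at D0, 13.92 to 15.17 at D2, 15.33 to 16.04 at D4 and 15.16 to 15.31 at D8, with Cd163 and Marco detected on no array. In total RNA from a whole culture, fewer cells of a type and less RNA per cell cannot be told apart.

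Of the 58 genes, 38 were detected on all 15 arrays, 8 on some and 12 on none. The 12 were Gsta1, Gsta2, Gstm3, Gstm6, Gstm6l, Gstt3, Gpx5, Gpx6, Srxn1, Txndc2, Txndc8 and Txndc11, for which a low signal says only that the probe was not above background. From D0 to D2, 10 genes rose and 13 fell, where 10.3% of all probes rose and 8.25% fell. From D0 to D8, 13 rose and 8 fell, against 9.91% and 8.1% of all probes. The median log2 change over the 58 was 0.07 at D2 and 0.14 at D8, and that over all probes was −0.02 in both. Bright probes passed more often in general. Among probes with a mean log2 signal of at least 7, 39.4% passed in either direction from D0 to D2 and 38.3% from D0 to D8, and of the 41 antioxidant genes above this level 19 and 18 passed. This level was chosen after the counts were seen. From D2 to D8, 7 genes rose and 2 fell, against 1.16% and 1.42% of all probes. With raw signals scaled to a common median, the members split as 11 higher and 9 lower (D0 to D2) and 3 higher and 2 lower (D2 to D8), and 70.1% and 25.1% of all called probes were higher, against 55.5% and 45.1% with VSN. The 3 comparisons share arrays (D0 in the first and second, D2 in the first and last), so their values are given side by side and not as independent findings.

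**Figure D1:**
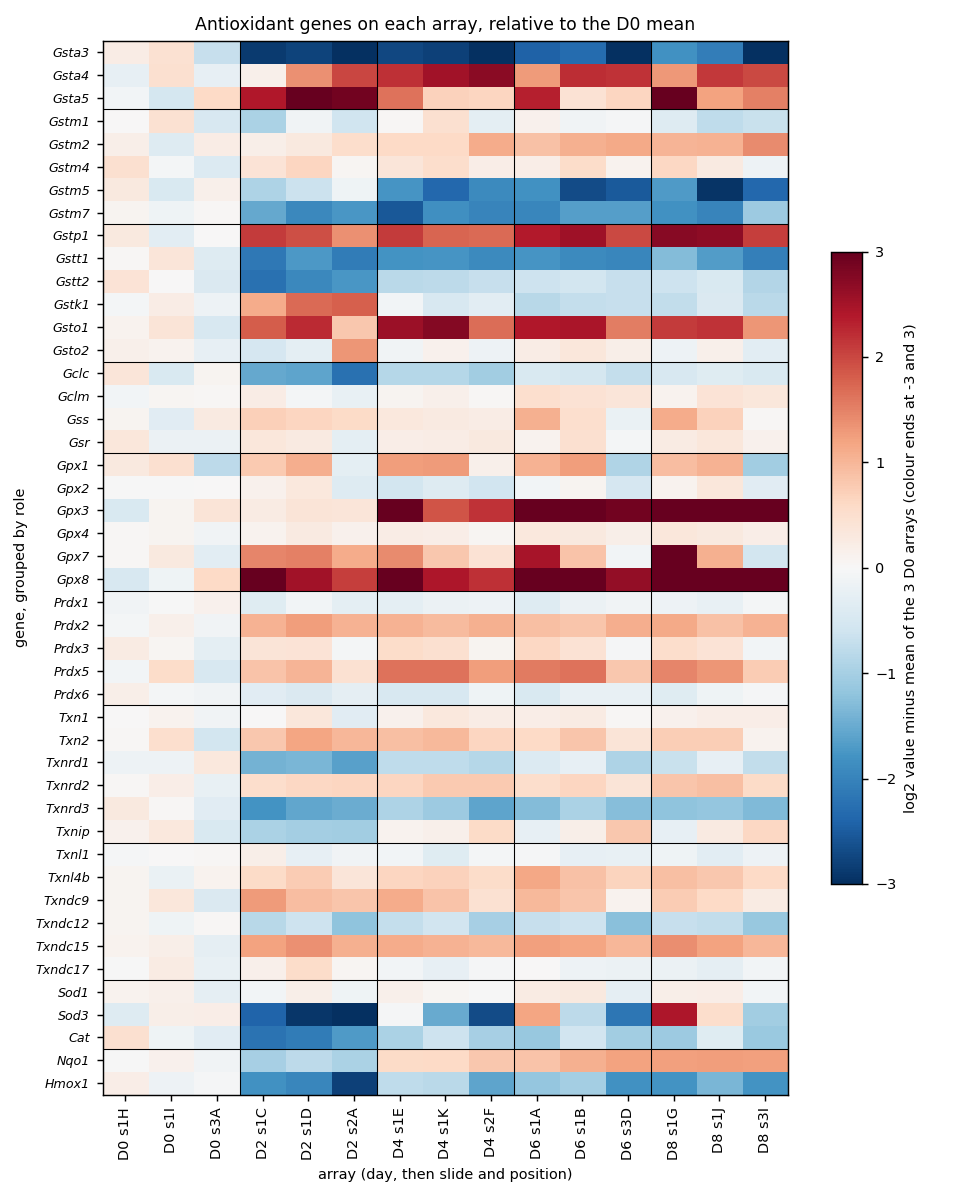
Log2 signal of the 46 genes detected on at least 1 array, minus the mean of the 3 D0 arrays, for each of the 15 arrays in order of day; rows are grouped by role and the colour scale ends at −3 and 3. Gclc, Txnrd1, Hmox1, Cat and Gstt2 have their lowest mean at D2, while Gpx3, Gpx8 and Gstp1 are highest at D6 and D8.

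**Figure D2:**
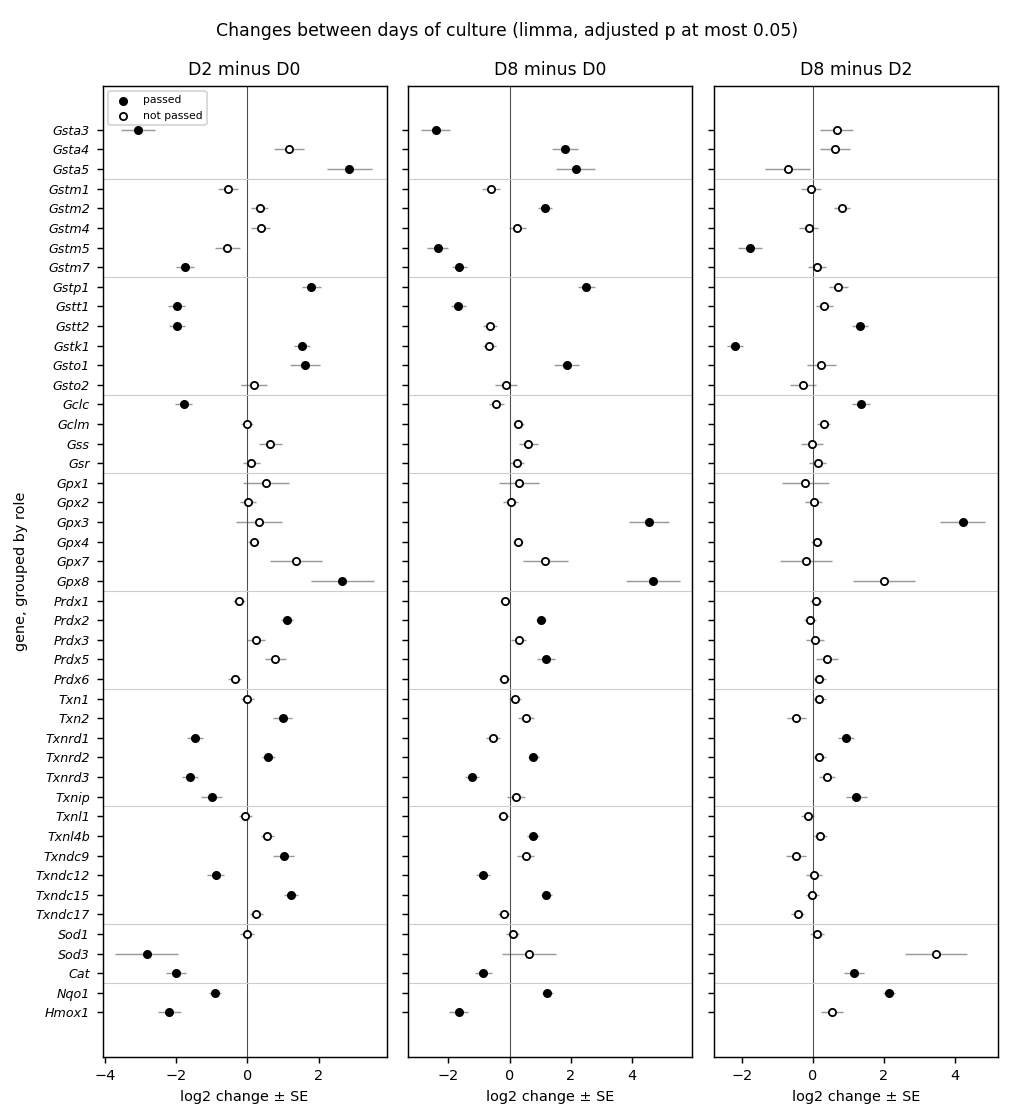
Log2 change with its standard error from limma for the same 46 genes (rows) in D2 minus D0, D8 minus D0 and D8 minus D2 (panels); filled points passed an adjusted p of at most 0.05. Among genes detected on all 15 arrays, D8 minus D0 runs from −2.34 (Gstm5) to 4.54 (Gpx3), and points of genes undetected on a day, such as Gpx8 and Gsta3, are fitted values and no measured fold.

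Gclc, the only 1 of 4 genes of glutathione synthesis and recycling to pass, and several NRF2-type enzymes were lower at D2 than in fresh AT2 cells, and Gclc and Nqo1 were higher at D8 than at D2. Of 16 genes listed as NRF2-type from general knowledge, 5 fell (Gsta3, Gclc, Txnrd1, Nqo1 and Hmox1) and 1 rose (Gstp1) by D2. Their median log2 change was −0.23, against −0.02 over all probes, of which 8.25% fell and 10.3% rose. Among probes with a mean log2 signal of at least 7, 39.4% passed in either direction. From D2 to D8, 3 rose (Gclc, Nqo1 and Txnrd1) and none fell, against 1.16% and 1.42% of all probes. The Txnrd1 call was lost whichever array was left out. The median was 0.41 against 0.01 over all probes, and it lies between Gclm (0.30) and Srxn1 (0.51). Gsta1, Gsta2 and Srxn1, which are among the 16, were detected on no array. Gclc codes for the catalytic subunit of glutamate-cysteine ligase. Its log2 signals were 12.29, 11.46 and 12.003 at D0, 10.38, 10.35 and 9.67 at D2, 11.05, 11.07 and 10.88 at D4, 11.47, 11.40 and 11.21 at D6, and 11.43, 11.55 and 11.47 at D8. The D2 values lie below those of every other day, and D8 overlaps D0. Gclc fell by 1.79 ± 0.24 (SE; limma, adjusted p = 9.23e-05) from D0 to D2 and rose by 1.35 ± 0.24 (adjusted p = 0.00752) from D2 to D8. The rise missed the threshold with scaling to a common median (1.06, adjusted p = 0.0839) and with only the arrays of the days compared (adjusted p = 0.0666). The D8 minus D0 difference of −0.43 ± 0.24 did not pass (adjusted p = 0.279).

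The other genes of glutathione synthesis and recycling did not pass between any days with VSN and all arrays. Gclm, the modifier subunit of the same ligase, had signals of 10.08, 10.20 and 10.18 at D0, 10.38, 10.11 and 9.93 at D2, 10.24, 10.30 and 10.18 at D4, 10.65, 10.58 and 10.52 at D6, and 10.26, 10.57 and 10.49 at D8. They lie between 9.93 and 10.65 on all 15 arrays, and its changes were −0.02 ± 0.18 by D2 and 0.29 ± 0.18 by D8 (limma, adjusted p = 0.977 and 0.347). With the authors' normalised values the D8 difference passed (0.34, adjusted p = 0.0179). Gsr, the reductase that restores glutathione, had 10.73, 10.20 and 10.21 at D0, 10.73, 10.66 and 10.10 at D2, 10.58, 10.61 and 10.68 at D4, 10.48, 10.86 and 10.31 at D6, and 10.64, 10.72 and 10.51 at D8, and its D8 minus D0 difference was 0.24 ± 0.23 (limma, adjusted p = 0.587). Gss, glutathione synthetase, had 8.09, 7.67 and 8.30 at D0, 8.74, 8.66 and 8.597 at D2, 8.33, 8.30 and 8.25 at D4, 9.07, 8.53 and 7.82 at D6, and 9.14, 8.71 and 8.05 at D8, with a D8 minus D0 difference of 0.61 ± 0.32 (limma, adjusted p = 0.237). On slide 1 alone Gss passed as higher at D2 (0.82, adjusted p = 0.0407) and at D8 (1.04, adjusted p = 0.0134). Gclc and Gclm are thus given different calls at D2, but the difference between these genes was not tested.

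Nqo1, a quinone reductase often read as a marker of NRF2 activity, first fell and then rose past its starting level. Its signals were 13.28, 13.42 and 13.20 at D0, 12.30, 12.51 and 12.36 at D2, 13.86, 13.90 and 14.12 at D4, 14.16, 14.36 and 14.51 at D6, and 14.53, 14.56 and 14.52 at D8. No 2 days overlap, with D2 lowest and D8 highest, although the D6 array s3D lies just below the lowest D8 array. Nqo1 fell by 0.91 ± 0.17 (SE) from D0 to D2 (limma, adjusted p = 0.00151), rose by 1.57 ± 0.17 from D2 to D4 (adjusted p = 0.000453), and at D8 was 1.24 ± 0.17 above D0 (adjusted p = 0.000115) and 2.14 ± 0.17 above D2 (adjusted p = 1.69e-05). The fall by D2 missed the threshold when raw signals were scaled to a common median (−0.49, adjusted p = 0.0652).

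Hmox1 codes for the inducible heme oxygenase, and it is abundant in macrophages as well as in stressed epithelium. Its signals were 14.33, 13.97 and 14.10 at D0, 12.33, 12.19 and 11.32 at D2, 13.37, 13.32 and 12.55 at D4, 12.97, 13.11 and 12.31 at D6, and 12.35, 12.76 and 12.34 at D8. Every later array lies below every D0 array. Hmox1 fell by 2.19 ± 0.31 by D2 (limma, adjusted p = 0.00015) and by 1.65 ± 0.31 by D8 (adjusted p = 0.00155), and the D8 minus D2 difference of 0.54 ± 0.31 did not pass (adjusted p = 0.567). Beside this, the macrophage marker sum was 14.82 to 15.15 at D0, 13.92 to 15.17 at D2, 15.33 to 16.04 at D4 and 15.16 to 15.31 at D8. Of the 13 measured markers of this list 4 rose and 1 fell by D8 (median 1.17), with Tyrobp higher by 2.59 ± 0.51 and Lcp1 lower (−0.80 ± 0.22). The part of macrophages in the Hmox1 signal was not tested. Srxn1, the sulfiredoxin that repairs overoxidised peroxiredoxins, had signals of 3.81 to 5.76 and was detected on no array.

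**Figure D3:**
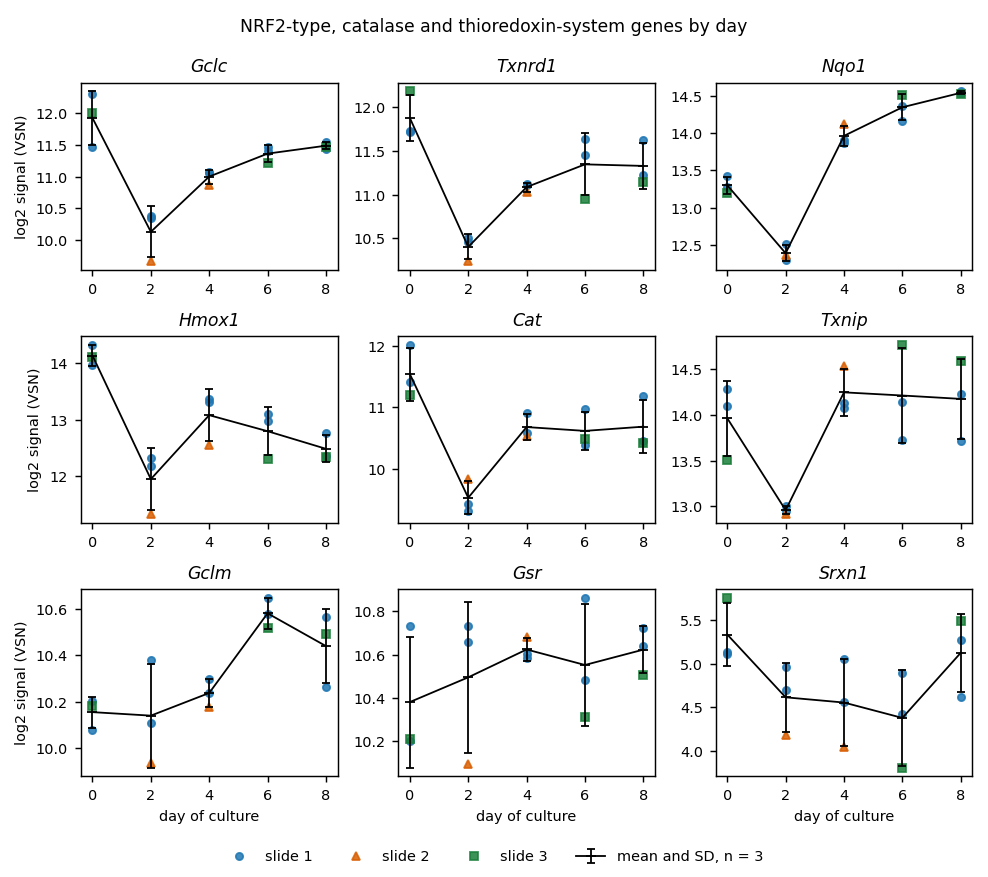
Log2 signal against day of culture for Gclc, Txnrd1, Nqo1, Hmox1, Cat, Txnip, Gclm, Gsr and Srxn1; each point is an array, its shape and colour give the slide, and the black line joins day means with SD bars (n = 3). The upper 6 genes have their lowest mean at D2, Gclm lies between 9.93 and 10.65, and Srxn1 was below detection on every array.

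The promoter windows of these genes were read for the core of the antioxidant response element, since this is the sequence through which NRF2-type regulation is known to act. RefSeq windows of 300 bases, from 250 before to 50 after a transcription start (build GRCr8), were at hand for 49 of the 58 genes. The core was searched as TGACNNNGC on both strands, where N is any base. It was present in 14 of the 49 genes (28.6%), and in 13.1% of 27457 genes with a window. A match is a description of letters and not a site of binding. Shown, as examples and by no set rule, are windows of 2 genes that rose (Gstp1 and Prdx5), 4 that fell by D2 or D8 (Txnrd1, Gsta3, Gstm5 and Gstm7) and 3 that did not pass (Gclm, Prdx1 and Gpx2). Each runs 5′ to 3′ on the strand of the gene with the core in capitals. Not shown are the cores of Txnl4b, which rose by D8, and of Gsta1, Gsta2, Txndc11 and Txndc17, which did not pass, and a further core of Gstm5. Genes of all 3 kinds hold the core.
Gstp1: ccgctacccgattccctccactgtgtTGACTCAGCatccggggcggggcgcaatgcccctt
Prdx5: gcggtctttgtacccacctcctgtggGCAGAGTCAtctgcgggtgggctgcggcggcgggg
Txnrd1: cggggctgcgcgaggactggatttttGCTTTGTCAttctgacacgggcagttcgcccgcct
Gsta3: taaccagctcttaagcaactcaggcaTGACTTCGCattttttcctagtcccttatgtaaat
Gstm5: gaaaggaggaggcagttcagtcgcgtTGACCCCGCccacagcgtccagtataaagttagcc
Gstm7: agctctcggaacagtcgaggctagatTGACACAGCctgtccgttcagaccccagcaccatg
Gclm: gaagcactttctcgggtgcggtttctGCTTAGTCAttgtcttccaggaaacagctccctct
Prdx1: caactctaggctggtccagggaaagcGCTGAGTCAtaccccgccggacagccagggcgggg
Gpx2: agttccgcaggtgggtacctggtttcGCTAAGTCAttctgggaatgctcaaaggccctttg
In the order shown, the windows lie at chr1:210769732-210769792 (minus strand), chr1:213531994-213532054 (minus strand), chr7:22755948-22756008 (minus strand), chr9:31154946-31155006 (plus strand), chr2:198219690-198219750 (plus strand), chr2:198260299-198260359 (minus strand), chr2:213031937-213031997 (plus strand), chr5:135383745-135383805 (plus strand) and chr6:101230012-101230072 (minus strand). In Gstp1 the core starts 61 bases before the transcription start, and in Prdx1 it starts 135 bases before it. In both, the core read on its own strand is TGACTCAGC and also spells TGACTCA, the site of AP-1, so the match cannot be told apart from that motif. The Nqo1 and Gclc windows held no core, which says only that these letters are not in these 300 bases. Hmox1 and Gsr had no window at hand.

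NRF2 itself and several of its partners were lower at D2 as well. Of 10 measured genes in a list of NRF2 partners and inhibitors, 1 rose and 7 fell from D0 to D2 (median −1.46), and 2 rose and 4 fell from D0 to D8 (median −0.54). The shares of all probes were 10.3% and 8.25% by D2, and 9.91% and 8.1% by D8. Nfe2l2, which codes for NRF2 and is named here after its values were seen, had signals of 12.46 to 13.27 at D0, 11.39 to 11.61 at D2 and 12.48 to 12.51 at D8. It fell by 1.46 by D2 and rose by 0.97 from D2 to D8 (limma, adjusted p = 0.000197 and 0.0291), and its difference of −0.49 at D8 did not pass (adjusted p = 0.149). The small MAF proteins are the DNA-binding partners of both NRF2 and its competitor BACH1. Maff, with 10.06 to 11.33 at D0, was not detected at D2 and was at least 23.9-fold lower (limma, adjusted p = 1.81e-08). Mafk and Mafg fell by D2 (−2.59 ± 0.33 and −1.57 ± 0.18) and lay below D0 at D8 (−1.92 and −0.91, limma, adjusted p = 0.000685 and 0.00215). Bach1, detected on 2 of the D0 arrays and on none at D2 or D8, passed as lower at D2 (limma, adjusted p = 0.000701), with no level above background there. Keap1, the inhibitor of NRF2, was higher by 0.72 ± 0.18 at D8 (limma, adjusted p = 0.0108). That call was lost without the D8 array s1J (0.66, adjusted p = 0.0533).

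Signals of the glutathione transferase genes moved in both directions. Of the 20 transferase genes, 4 rose and 4 fell by D2, and 5 rose and 4 fell by D8. Of all probes, 10.3% rose and 8.25% fell by D2, and 9.91% rose and 8.1% fell by D8. Of probes with a mean log2 signal of at least 7, 39.4% and 38.3% passed in either direction. Gstp1, the pi-class enzyme that is widespread in epithelia, had the lowest adjusted p of any of these genes at D8. Its signals were 11.47, 10.85 and 11.18 at D0, 13.25, 13.09 and 12.54 at D2, 13.26, 12.91 and 12.88 at D4, 13.53, 13.70 and 13.14 at D6, and 13.90, 13.86 and 13.25 at D8. Every later array lies above every D0 array, and neighbouring days from D2 on overlap. Gstp1 rose by 1.79 ± 0.27 by D2 (limma, adjusted p = 0.000202) and by 2.51 ± 0.27 by D8 (adjusted p = 9.32e-06). A second probe of the gene gave 1.56 (adjusted p = 0.0753) and 2.17 (adjusted p = 0.0139), and the other probe was detected on no array.

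Gsto1, an omega-class enzyme that reduces dehydroascorbate and mixed disulfides, followed Gstp1 in direction. Its signals were 10.15, 10.42 and 9.56 at D0, 11.87, 12.28 and 10.85 at D2, 12.61, 12.80 and 11.71 at D4, 12.45, 12.50 and 11.57 at D6, and 12.13, 12.22 and 11.36 at D8. The arrays off slide 1 are the lowest of each day, and all of them are above every D0 array at D2 and later. Gsto1 rose by 1.62 ± 0.42 by D2 (limma, adjusted p = 0.013) and by 1.86 ± 0.42 by D8 (adjusted p = 0.00536). The D2 call was lost without D0 s3A (1.38, adjusted p = 0.0598), without D2 s1C (1.52, adjusted p = 0.0525) or without D2 s1D (1.31, adjusted p = 0.0702). Gsto2, the other omega-class gene, was detected on 4 of the 15 arrays and did not pass.

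Among the alpha-class genes, Gsta4, whose product is known for conjugating 4-hydroxynonenal from oxidised lipids, rose while Gsta3 fell. Gsta4 signals were 7.61, 8.34 and 7.61 at D0, 7.99, 9.22 and 9.86 at D2, 10.04, 10.36 and 10.57 at D4, 9.13, 10.06 and 10.03 at D6, and 9.14, 9.98 and 9.82 at D8. The arrays at D4 and later are all above those at D0, while D2 overlaps D0 through s1C. Gsta4 rose by 1.80 ± 0.42 by D8 (limma, adjusted p = 0.00724), and its difference at D2 was 1.17 ± 0.42 (adjusted p = 0.0734). Gsta3, with 8.27, 8.51 and 7.34 at D0, 5.16, 5.27 and 4.48 at D2, 5.30, 5.24 and 4.60 at D4, 5.63, 5.73 and 4.27 at D6, and 6.23, 5.96 and 4.72 at D8, was detected on all 3 D0 arrays and on none after. It was at least 3.35-fold lower at D2 and at least 3.05-fold lower at D8 (limma, adjusted p = 0.000258 and 0.00189). Gsta5 moved the other way from below detection, with 5.27, 4.83 and 5.96 at D0, 7.75, 8.66 and 8.24 at D2, 6.99, 6.05 and 6.01 at D4, 7.68, 5.78 and 5.99 at D6, and 9.11, 6.55 and 6.87 at D8. It was detected on no D0 array and on all 3 at D2 and D8, where it was at least 2.95-fold and at least 1.81-fold higher (limma, adjusted p = 0.00451 and 0.0265). The D8 call for Gsta5 was lost without D0 s1H (adjusted p = 0.0726), without D0 s1I (adjusted p = 0.0954) or without D8 s1G, the highest array (adjusted p = 0.122). Gsta5 was highest of its day on s1E, s1A and s1G, which also had the highest fibroblast marker sums at D4, D6 and D8 (14.72, 15.40 and 15.81). At D2, where Gsta5 had its highest mean, this sum was 11.08 to 11.97, against 11.23 to 11.66 at D0. The part of such cells was not tested. Alpha-class and mu-class genes are close paralogs, and cross-hybridisation between them was not tested.

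Among the mu-class genes, Gstm2 rose and Gstm5 and Gstm7 fell. Gstm2, which codes for an abundant mu-class enzyme, had signals of 11.35, 10.80 and 11.40 at D0, 11.37, 11.48 and 11.71 at D2, 11.77, 11.79 and 12.29 at D4, 12.05, 12.25 and 12.31 at D6, and 12.21, 12.23 and 12.61 at D8. Its D8 arrays all lie above those of D0 and D2. It rose by 1.17 ± 0.23 by D8 (limma, adjusted p = 0.00181), and its D2 minus D0 difference of 0.34 ± 0.23 did not pass (adjusted p = 0.392). Gstm5 fell later than most other genes here, with 11.24, 10.47 and 11.10 at D0, 10.001, 10.30 and 10.81 at D2, 9.17, 8.59 and 9.04 at D4, 9.12, 8.26 and 8.43 at D6, and 9.23, 7.99 and 8.57 at D8. D2 overlaps D0, and all arrays from D4 on are below both. Gstm5 fell by 2.34 ± 0.35 from D0 to D8 (limma, adjusted p = 0.00021) and by 1.77 ± 0.35 from D2 to D8 (adjusted p = 0.0142), the latter lost without D2 s2A (−1.55, adjusted p = 0.061) or D8 s1J (−1.47, adjusted p = 0.0815). Gstm7, with 7.62, 7.39 and 7.56 at D0, 5.98, 5.58 and 5.78 at D2, 4.98, 5.68 and 5.54 at D4, 5.55, 5.87 and 5.87 at D6, and 5.70, 5.54 and 6.43 at D8, was detected on the D0 arrays alone. It was at least 2.34-fold lower at D2 and at least 2.13-fold lower at D8 (limma, adjusted p = 0.000191 and 0.000334). Gstm1 and Gstm4 were detected on every array and did not pass, with D8 minus D0 differences of −0.61 and 0.25. The airway marker sum was 15.60 to 15.78 at D0, 14.61 to 15.24 at D2 and 10.88 to 12.39 at D8. The AT2 sum was 17.81 to 18.09 at D0 and 14.51 to 14.74 at D2. The erythroid sum was lower at D2 as well, though none of its 5 measured markers passed. The endothelial sum was also lower at D2, but of its 4 measured markers Cdh5, Tek and Vwf were detected on no array, which leaves Cldn5. The part of any of these cells in the lower Gstm5, Gstm7 and Gsta3 signals was not tested.

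The theta and kappa classes had patterns of their own. Gstt1, a theta-class enzyme that acts on small halogenated molecules, had signals of 9.22, 9.56 and 8.80 at D0, 7.05, 7.47 and 7.10 at D2, 7.39, 7.42 and 7.28 at D4, 7.42, 7.29 and 7.24 at D6, and 7.90, 7.53 and 7.15 at D8. Every array after D0 lies below the D0 arrays. Gstt1 fell by 1.99 ± 0.24 by D2 and fell by 1.67 ± 0.24 by D8 (limma, adjusted p = 3.22e-05 and 0.000142). Gstt2, a second theta-class gene, had 12.15, 11.74 and 11.29 at D0, 9.50, 9.80 and 9.98 at D2, 10.92, 10.94 and 11.05 at D4, 11.12, 11.17 and 11.04 at D6, and 11.11, 11.28 and 10.84 at D8. The D2 arrays are below all others and the later days lie between D2 and D0. Gstt2 fell by 1.97 ± 0.23 by D2 (limma, adjusted p = 2.26e-05), rose by 1.32 ± 0.23 from D2 to D8 (adjusted p = 0.0063; lost with a common median, 1.02 and adjusted p = 0.108, and with only the arrays of the days compared, adjusted p = 0.0576), and at D8 differed from D0 by −0.65, which did not pass (adjusted p = 0.0638). Gstk1, the kappa-class enzyme of mitochondria and peroxisomes, had 10.16, 10.44 and 10.06 at D0, 11.32, 11.92 and 11.998 at D2, 10.13, 9.73 and 9.89 at D4, 9.38, 9.49 and 9.53 at D6, and 9.49, 9.77 and 9.41 at D8. It is high on the 3 D2 arrays and on no other. Gstk1 rose by 1.53 ± 0.22 by D2 (limma, adjusted p = 0.000146) and fell by 1.83 ± 0.22 from D2 to D4 (adjusted p = 0.000596) and by 2.19 ± 0.22 from D2 to D8 (adjusted p = 0.000101). At D8 its difference from D0 was −0.66 (adjusted p = 0.0505).

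**Figure D4:**
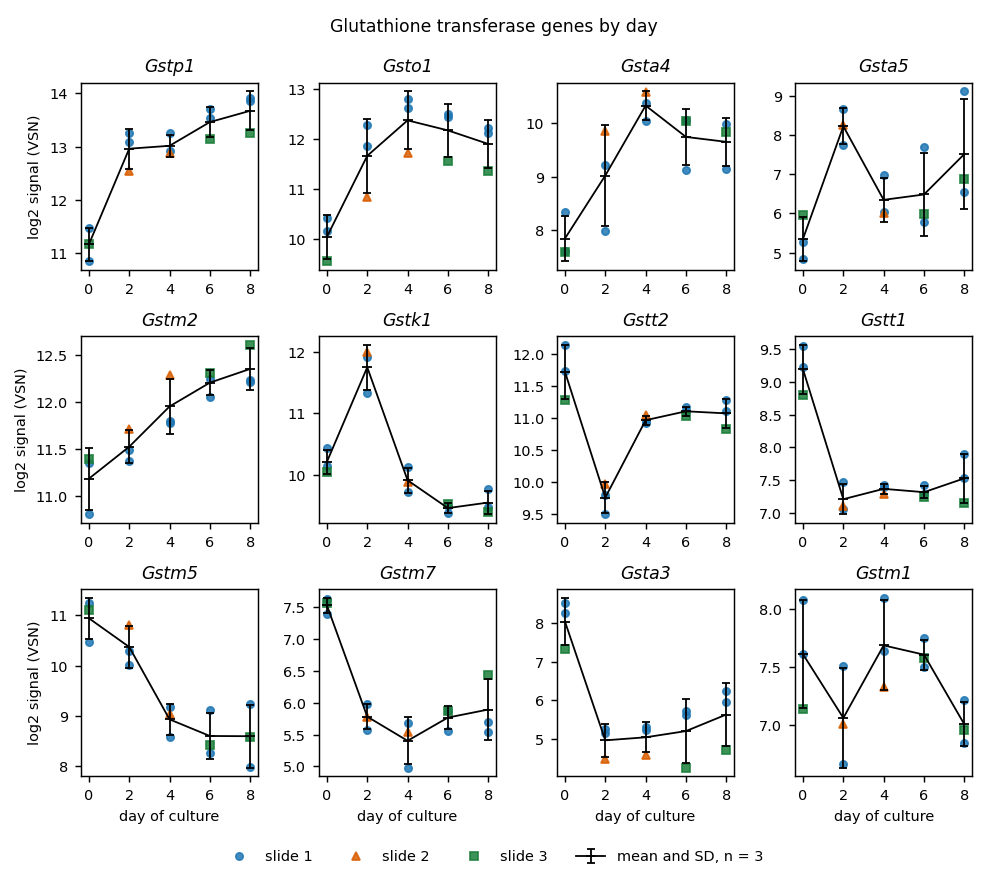
Log2 signal against day of culture for glutathione transferase genes; each point is an array, its shape and colour give the slide, and the black line joins day means with SD bars (n = 3). Gstp1, Gsto1 and Gsta4 lie higher at D8 than at D0, Gstt1, Gstm5, Gstm7 and Gsta3 lie lower, Gstk1 peaks at D2 and Gstt2 dips there.

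Signals rose for 2 of the glutathione peroxidase genes. Of 8 Gpx genes, 1 rose by D2 (Gpx8) and 2 by D8 (Gpx3 and Gpx8), and none fell, where 10.3% and 9.91% of all probes rose. Gpx5 and Gpx6 were detected on no array. Gpx3, the secreted plasma form, had signals of 6.84, 7.39 and 7.68 at D0, 7.56, 7.69 and 7.66 at D2, 10.91, 9.19 and 9.48 at D4, 12.46, 10.46 and 10.20 at D6, and 13.17, 11.55 and 10.81 at D8. D2 overlaps D0, and every array from D4 on is above both. Gpx3 rose by 4.54 ± 0.64 from D0 to D8 (limma, adjusted p = 0.00013) and by 4.21 ± 0.64 from D2 to D8 (adjusted p = 0.00272), and its D2 minus D0 difference was 0.33 ± 0.64 (adjusted p = 0.83). Gpx8, a membrane protein of the endoplasmic reticulum that takes part in oxidative folding, had 5.42, 5.78 and 6.50 at D0, 9.29, 8.43 and 7.98 at D2, 10.63, 8.33 and 8.09 at D4, 11.90, 9.84 and 8.53 at D6, and 12.14, 10.33 and 9.21 at D8. It was detected on no D0 array and on every array after. Gpx8 was at least 3.75-fold higher at D2 and at least 15-fold higher at D8 (limma, adjusted p = 0.0484 and 0.00149). The D2 call was lost whichever of the 6 arrays was left out (adjusted p from 0.0651 to 0.165), and with the normalised values of the authors (adjusted p = 0.175). Gpx7, the related secretory-pathway protein, was detected on 1 D0 array and 2 D8 arrays and differed by 1.17 ± 0.72 at D8 (limma, adjusted p = 0.349).

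Fibroblast marker sums were higher at D4 and later, as Gpx3 was, but not at D2. Their sum was 11.23 to 11.66 at D0 and 11.08 to 11.97 at D2, where none of the 7 measured markers passed. Gpx8 was already detected on all 3 D2 arrays. The arrays with the highest Gpx3 and Gpx8 signals at D4, D6 and D8 were s1E, s1A and s1G, and these had the highest marker sums of their day as well, at 14.72, 15.40 and 15.81, against 12.62 to 12.92, 13.01 to 13.80 and 13.56 to 14.56 on the other arrays. Of the 7 measured markers, 2 were detected on all 3 arrays at D0 and 5 at D8, with Lum, Pdgfra and Postn detected on no D0 array. Without D8 s1G, the D8 minus D0 change of Gpx3 was 3.88 (limma, adjusted p = 0.000655), and Gpx8, which has no measured D0 level, still passed (adjusted p = 0.00908). For Gpx3 the change was 3.13 between the slide 3 arrays alone, against 5.25 on slide 1. The part of such cells in these results was not tested.

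The broadly expressed peroxidases did not pass with the VSN values used here. Gpx1, the main cytosolic form, had signals of 13.12, 13.30 and 12.05 at D0, 13.60, 13.90 and 12.52 at D2, 14.08, 14.11 and 12.98 at D4, 13.87, 14.08 and 11.93 at D6, and 13.76, 13.85 and 11.77 at D8. The array off slide 1 is the lowest of each day, and the D8 minus D0 difference was 0.31 ± 0.65 (limma, adjusted p = 0.85). Gpx4, which reduces lipid peroxides within membranes, had 13.18, 13.23 and 13.03 at D0, 13.25, 13.42 and 13.28 at D2, 13.37, 13.34 and 13.21 at D4, 13.47, 13.45 and 13.32 at D6, and 13.48, 13.44 and 13.35 at D8. Its D8 arrays all lie above its D0 arrays by a small margin. The difference of 0.28 ± 0.16 did not pass in limma on the VSN values used here (adjusted p = 0.311). It passed with the authors' normalised values (0.36, adjusted p = 0.00803), neqc (0.40, adjusted p = 0.00647) and quantile normalisation (0.40, adjusted p = 0.000658). With quantile normalisation its D2 minus D0 difference passed as well (0.27, adjusted p = 0.0107). Gpx2, an epithelial form, differed by 0.03 (limma, adjusted p = 0.961).

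Among the peroxiredoxins, Prdx2 and Prdx5 rose and the others did not pass. Prdx2, a cytosolic enzyme that is also abundant in red cells, had signals of 12.90, 13.10 and 12.86 at D0, 14.00, 14.21 and 13.99 at D2, 13.99, 13.91 and 14.02 at D4, 13.86, 13.79 and 14.05 at D6, and 14.10, 13.83 and 13.99 at D8. Every later array is above every D0 array, and the days after D2 overlap. Prdx2 rose by 1.11 ± 0.17 by D2 and by 1.02 ± 0.17 by D8 (limma, adjusted p = 0.000298 and 0.000617), while the erythroid marker sum fell. Prdx5, found in mitochondria and peroxisomes, had 12.55, 13.18 and 12.15 at D0, 13.49, 13.66 and 13.09 at D2, 14.27, 14.25 and 13.88 at D4, 14.19, 14.25 and 13.44 at D6, and 14.10, 13.95 and 13.40 at D8. D8 lies wholly above D0, and the array off slide 1 is the lowest of each day. It rose by 1.19 ± 0.31 by D8 (limma, adjusted p = 0.0132), a call lost without D0 s3A (0.95, adjusted p = 0.0625), D8 s1G (1.04, adjusted p = 0.0622) or D8 s1J (1.12, adjusted p = 0.0521). Prdx1, an NRF2-type cytosolic enzyme, had 14.83, 14.92 and 15.08 at D0, 14.59, 14.86 and 14.66 at D2, 14.65, 14.77 and 14.79 at D4, 14.56, 14.76 and 14.84 at D6, and 14.78, 14.72 and 14.89 at D8, and Prdx6, which also handles surfactant phospholipids in the lung, had 14.49, 14.25 and 14.19 at D0, 13.97, 13.87 and 14.04 at D2, 13.82, 13.84 and 14.17 at D4, 13.86, 14.08 and 14.08 at D6, and 13.95, 14.19 and 14.28 at D8. Both overlap between D0 and D8, with differences of −0.15 ± 0.17 and −0.17 ± 0.18 (limma, adjusted p = 0.681 and 0.651). Prdx3, the mitochondrial form, differed by 0.29 ± 0.25 (limma, adjusted p = 0.544).

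**Figure D5:**
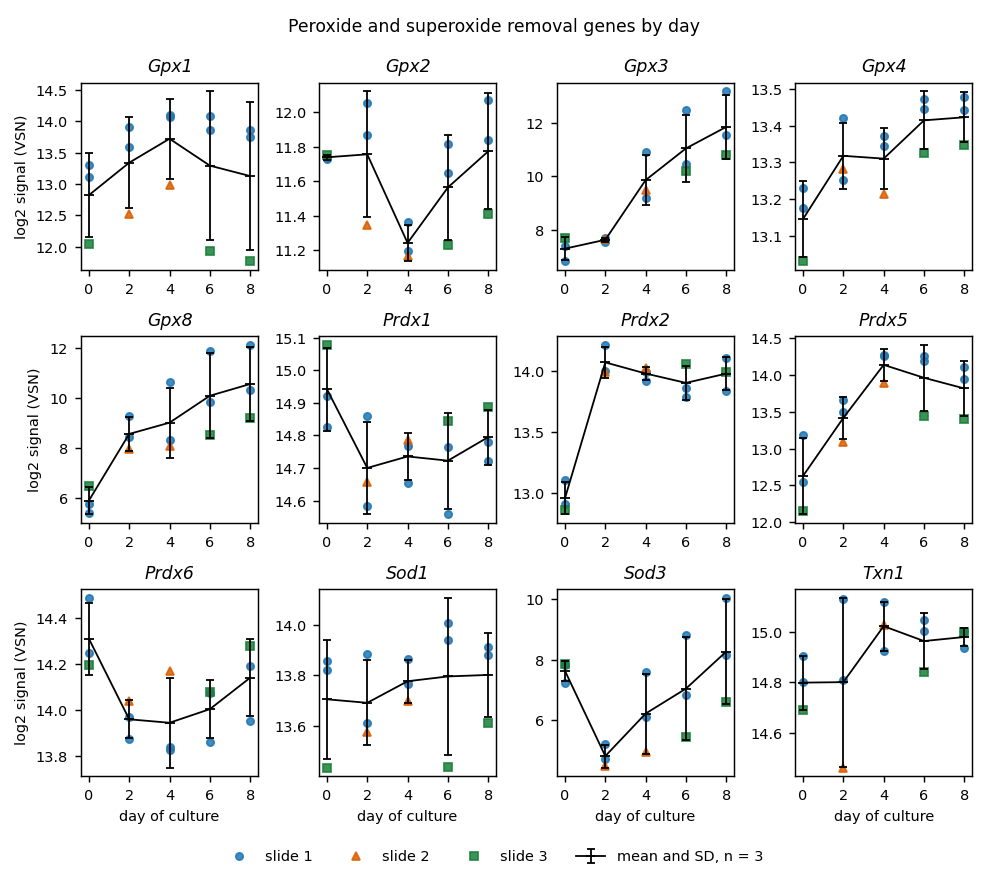
Log2 signal against day of culture for Gpx1, Gpx2, Gpx3, Gpx4, Gpx8, Prdx1, Prdx2, Prdx5, Prdx6, Sod1, Sod3 and Txn1; each point is an array, its shape and colour give the slide, and the black line joins day means with SD bars (n = 3). Gpx3, Gpx8 and Sod3 have their highest means at D8, with SDs of 1.21, 1.48 and 1.73 there, Prdx2 steps up at D2, and Sod1, Gpx4, Prdx1, Prdx6 and Txn1 stay within narrow ranges.

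In the thioredoxin system the carrier itself did not pass with the VSN values used here, and its reductases differed in direction. Txn1, the cytosolic thioredoxin, had signals of 14.80, 14.91 and 14.69 at D0, 14.81, 15.13 and 14.46 at D2, 14.92, 15.12 and 15.03 at D4, 15.01, 15.05 and 14.84 at D6, and 14.94, 15.01 and 14.9999 at D8. The D2 and D0 arrays overlap, and the D8 minus D0 difference of 0.18 ± 0.19 did not pass (limma, adjusted p = 0.64), nor did those of its other 2 probes. The Txn1 difference at D8 passed with quantile normalisation (0.42, adjusted p = 0.00641) and with neqc (0.40, adjusted p = 0.0221). Its D2 minus D0 difference passed with quantile normalisation (0.32, adjusted p = 0.0302). Txnrd1, the cytosolic thioredoxin reductase, had 11.73, 11.72 and 12.18 at D0, 10.46, 10.50 and 10.24 at D2, 11.11, 11.13 and 11.03 at D4, 11.46, 11.63 and 10.95 at D6, and 11.22, 11.62 and 11.14 at D8. Its D2 arrays are the lowest of the series. Txnrd1 fell by 1.48 ± 0.22 by D2 (limma, adjusted p = 0.000251) and rose by 0.93 ± 0.22 from D2 to D8 (adjusted p = 0.044). The rise was lost whichever array was left out (0.78 to 1.02, adjusted p from 0.0654 to 0.21). Every D8 array lies below the D0 arrays, but the difference of −0.55 ± 0.22 did not pass (limma, adjusted p = 0.119). It passed as lower with the authors' normalised values (−0.45, adjusted p = 0.0447), quantile normalisation (−0.53, adjusted p = 0.0336), neqc (−0.56, adjusted p = 0.0494) and the detection filter at 0.01 (adjusted p = 0.0405). Txnrd3, the reductase best known from testis, had 11.10, 10.84 and 10.46 at D0, 8.996, 9.24 and 9.32 at D2, 9.87, 9.71 and 9.21 at D4, 9.49, 9.84 and 9.52 at D6, and 9.59, 9.64 and 9.48 at D8. Every array after D0 lies below the D0 arrays. Txnrd3 fell by 1.61 ± 0.23 by D2 and fell by 1.23 ± 0.23 by D8 (limma, adjusted p = 0.000124 and 0.00125).

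Txnrd2 and Txn2 work in mitochondria. Txnrd2, the mitochondrial reductase, rose by 0.59 ± 0.18 by D2 and by 0.77 ± 0.18 by D8 (limma, adjusted p = 0.0321 and 0.00699), and the D2 call was lost without any 1 of 5 of the 6 arrays (0.48 to 0.63, adjusted p from 0.0636 to 0.106; without D0 s1I it held). Txn2, the mitochondrial thioredoxin, rose by 0.99 ± 0.27 by D2 (limma, adjusted p = 0.0177), a call lost without D0 s3A (0.72, adjusted p = 0.0785) or D2 s1D (0.90, adjusted p = 0.0717), and its D8 minus D0 difference of 0.53 ± 0.27 did not pass (adjusted p = 0.23). Txnip, which binds and inhibits thioredoxin and responds to glucose, had signals of 14.10, 14.29 and 13.50 at D0, 13.01, 12.95 and 12.92 at D2, 14.08, 14.13 and 14.54 at D4, 13.73, 14.14 and 14.77 at D6, and 13.71, 14.22 and 14.59 at D8. The D2 arrays lie close together and below all others. Txnip fell by 1.01 ± 0.30 by D2 (limma, adjusted p = 0.0298) and rose by 1.22 ± 0.30 from D2 to D8 (adjusted p = 0.0479). Both calls were lost on leaving out most single arrays: the first held only without D0 s3A and otherwise had an adjusted p from 0.0698 to 0.108, and the second held only without D8 s1G and otherwise had one from 0.124 to 0.19.

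Of 9 other thioredoxin-domain genes, 2 rose and 1 fell by D2 and likewise by D8, where 10.3% and 8.25% (D2) and 9.91% and 8.1% (D8) of all probes did. Txndc15, a membrane protein linked to cilia, had signals of 11.02, 11.07 and 10.64 at D0, 12.13, 12.29 and 11.97 at D2, 12.03, 11.95 and 11.89 at D4, 12.15, 12.10 and 11.90 at D6, and 12.29, 12.12 and 11.91 at D8. All later arrays are above D0, by 1.22 ± 0.19 at D2 and 1.20 ± 0.19 at D8 (limma, adjusted p = 0.000321 and 0.000361). Txndc12, an endoplasmic reticulum thiol-disulfide oxidoreductase, had 13.38, 13.18 and 13.33 at D0, 12.46, 12.67 and 12.09 at D2, 12.57, 12.72 and 12.31 at D4, 12.62, 12.67 and 12.04 at D6, and 12.60, 12.56 and 12.16 at D8. It fell by 0.89 ± 0.23 by D2 and by 0.86 ± 0.23 by D8 (limma, adjusted p = 0.0136 and 0.017). The first call was lost without D2 s2A (−0.73, adjusted p = 0.0616), and the second without D0 s1H (−0.82, adjusted p = 0.057) or D8 s3I (−0.72, adjusted p = 0.0742). Txndc9, a cofactor of the chaperonin that folds actin and tubulin, had 9.85, 10.12 and 9.33 at D0, 11.05, 10.68 and 10.61 at D2, 10.88, 10.62 and 10.23 at D4, 10.73, 10.61 and 9.88 at D6, and 10.52, 10.37 and 10.003 at D8. Its D2 arrays lie above those of D0, and it rose by 1.01 ± 0.28 by D2 (limma, adjusted p = 0.0211), which was lost without D0 s3A (0.80, adjusted p = 0.0929) or D2 s1C (0.88, adjusted p = 0.0921). Txnl4b, a protein related to a splicing factor, had 6.62, 6.35 and 6.64 at D0, 7.10, 7.29 and 6.90 at D2, 7.19, 7.24 and 7.09 at D4, 7.69, 7.41 and 7.20 at D6, and 7.43, 7.35 and 7.14 at D8, was detected on 1 D0 array and on all others, and rose by 0.77 ± 0.19 by D8 (limma, adjusted p = 0.0111). Txnl1 and Txndc17 were detected on every array and did not pass.

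Superoxide dismutases and catalase did not move together. Cat codes for catalase, the peroxisomal enzyme that splits hydrogen peroxide. Its signals were 12.02, 11.40 and 11.20 at D0, 9.33, 9.44 and 9.84 at D2, 10.59, 10.92 and 10.54 at D4, 10.40, 10.97 and 10.49 at D6, and 10.46, 11.18 and 10.42 at D8. The D2 arrays are the lowest, and all arrays from D4 on lie below the D0 range. Cat fell by 2.00 ± 0.28 by D2 (limma, adjusted p = 0.000123). The D8 minus D0 fall of 0.85 ± 0.28 (adjusted p = 0.0487) was lost without D0 s1H (−0.61, adjusted p = 0.199), D0 s1I (−0.92, adjusted p = 0.0678), D8 s1G (−0.74, adjusted p = 0.165) or D8 s3I (−0.72, adjusted p = 0.157), and the rise of 1.15 ± 0.28 from D2 to D8 (adjusted p = 0.045) was lost whichever array was left out (0.91 to 1.30, adjusted p from 0.0529 to 0.215).

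Sod1, the cytosolic copper-zinc dismutase, had signals of 13.82, 13.86 and 13.44 at D0, 13.61, 13.88 and 13.58 at D2, 13.86, 13.77 and 13.70 at D4, 13.94, 14.01 and 13.44 at D6, and 13.88, 13.91 and 13.61 at D8. D0 and D8 overlap, and the difference was 0.10 ± 0.21 (limma, adjusted p = 0.852). With quantile normalisation this difference passed (0.32, adjusted p = 0.0272). Sod3, the secreted form bound to extracellular matrix, had 7.24, 7.81 and 7.84 at D0, 5.22, 4.72 and 4.48 at D2, 7.58, 6.11 and 4.95 at D4, 8.82, 6.84 and 5.45 at D6, and 10.05, 8.16 and 6.59 at D8. It was detected on all D0 arrays, on none at D2, and at D8 on s1G and s1J but not on s3I. Sod3 was at least 2.52-fold lower at D2 (limma, adjusted p = 0.0378), a call lost whichever array was left out (adjusted p from 0.0647 to 0.107). D8 minus D2 did not pass (adjusted p = 0.0569). It passed as higher without D8 s3I (adjusted p = 0.0262), with slide as a fixed term (0.0244) or a random block (0.0122), on slide 1 alone (0.0149) and with both detection filters (0.0272 and 0.0326). On slide 1 the D8 minus D0 difference was 1.58, while on slide 3 Sod3 was detected at D0 and not at D8. The arrays s1E, s1A and s1G were again the highest of their day, as for the fibroblast marker sums given above. Sod2, the mitochondrial dismutase, is not among the 58 genes and fell by 2.42 ± 0.19 by D2 and fell by 2.24 ± 0.19 by D8 (limma, adjusted p = 5.27e-07 and 9.41e-07).

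After D2 few single steps passed. From D2 to D4, 2 genes rose (Nqo1 and Gstt2) and 1 fell (Gstk1), against 0.755% and 0.639% of all probes, and the Gstt2 rise of 1.21 ± 0.23 (limma, adjusted p = 0.0156) was lost on leaving out any array of either day except D2 s2A (1.08 to 1.24, adjusted p from 0.0553 to 0.0894). With slide as a fixed term 8 rose and 2 fell at this step, and with a common median 1 rose and 1 fell (36.4% of called probes higher, against 54.1%). From D4 to D6 and from D6 to D8 limma called none of the 58 genes and 0% of all probes. At an unadjusted p under 0.05 there were 1 and 0 of the 58, and 434 and 435 of all 22523 probes.

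Genes that supply and use the same cofactors were counted from lists of the surrounding pathways. For cysteine supply, 1 of 7 measured genes rose and 3 fell by D2 and again by D8, where 10.3% and 8.25% (D2) and 9.91% and 8.1% (D8) of all probes did. Slc1a5, a neutral amino acid transporter, rose by 3.48 ± 0.31 by D2 and 2.36 ± 0.31 by D8 (limma, adjusted p = 1.69e-06 and 6.14e-05). Cth, which makes cysteine from cystathionine, was detected on every D0 array and on none at D2, where it was at least 11.8-fold lower (limma, adjusted p = 1.03e-05). Slc3a2, the heavy chain of the cystine transporter, fell by 1.56 ± 0.20 by D2, and its light chain Slc7a11 was detected on no D0, D2 or D8 array. For NADPH supply, 3 of 6 genes rose at both days and none fell, where 39.4% and 38.3% of probes with a mean log2 signal of at least 7, as all 6 had, passed in either direction. These were Idh1, Idh2 and Pgls, with changes of 1.34, 0.98 and 0.73 by D8 (limma, adjusted p = 0.00217, 0.00404 and 0.00954).

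Glutathione breakdown and export had 2 of 9 genes higher and 3 lower by D2, and 2 higher and 4 lower by D8. All probes had 10.3% higher and 8.25% lower by D2, and 9.91% higher and 8.1% lower by D8. The exporters Abcc5 and Abcc3 rose by 2.67 ± 0.25 and 1.32 ± 0.19 by D8 (limma, adjusted p = 3.32e-06 and 0.000188). Dpep1, a dipeptidase that acts on products of glutathione outside the cell, fell by 2.30 ± 0.33, and Chac1, which degrades glutathione inside the cell, fell by 2.32 ± 0.29. Among 13 other glutathione-dependent enzymes, 4 rose and 2 fell by D2. The microsomal transferase Mgst2 fell by 2.13 ± 0.26, and the related prostaglandin E synthase Ptges, detected on no D0 array and all 3 at D2, was at least 3.11-fold higher (limma, adjusted p = 3.33e-05 and 3.5e-07).

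Of 18 other genes of drug, heme and iron metabolism listed as NRF2-type, 3 rose and 3 fell by D2, and 5 rose and 2 fell by D8. For this and the next 2 lists, the shares of all probes were 10.3% higher and 8.25% lower by D2. By D8 they were 9.91% and 8.1%. Among probes with a mean log2 signal of at least 7, 39.4% and 38.3% passed in either direction. Cyp1b1, which is better known as a target of the aryl hydrocarbon receptor, was detected on no D0 array and on every later one, and was at least 55.5-fold higher at D8 (limma, adjusted p = 2.15e-10). Ugt1a6, a glucuronosyltransferase that the same receptor is known to regulate, rose by 1.84 ± 0.29 by D8, and the carbonyl reductase Cbr1 by 2.35 ± 0.24. Osgin1, an oxidative stress-induced growth inhibitor, had signals of 10.81 to 11.32 at D0, 6.85 to 6.89 at D2 and 8.25 to 8.92 at D8. It fell by 4.14 ± 0.24 by D2 and by 2.47 ± 0.24 by D8 (limma, adjusted p = 3.76e-08 and 3.45e-06). Among 20 other oxidant defence genes, 2 rose and 5 fell by D2, and 3 rose and 2 fell by D8. Of 11 measured sources of oxidants, 1 rose and 3 fell by D2, and 3 rose and 3 fell by D8. Aox1 and Maob, which release hydrogen peroxide as they oxidise aldehydes and amines, fell by D8 (−4.49 ± 0.33 and −3.11 ± 0.33), and Cyba, a membrane subunit of NADPH oxidase, rose by 1.25 ± 0.26 (limma, adjusted p = 2.61e-07, 8.29e-06 and 0.00349). Cyba and Ncf1, which rose by 2.18 ± 0.54 (limma, adjusted p = 0.0103), are abundant in phagocytes, and 4 of 13 macrophage and leukocyte markers rose over the same days (Tyrobp, Aif1, C1qb and Itgam), with 1 lower (Lcp1). The part of such cells was not tested.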

How the data were processed

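Illumina RatRef-12 arrays of 15 RNA samples were read from the deposited table of raw bead signal intensity and detection p-value, which the authors exported from BeadStudio. The authors' own normalised log2 values, made with VSN in LUMI, were deposited as well and served as an alternative. The submitters' processing notes name R 2.11.1 and limma. Here intensities were put on a log2 scale by a VSN refit (trimming quantile 0.9, 7 rounds, 5 slices), without background subtraction, and fitted with limma 3.58.1 in R 4.3.3, with a mean for each day over all 15 arrays and Benjamini-Hochberg adjustment over 22523 probes. The fit was tested on simulated data. A probe with no detected array on the dimmer day gives only a bound on the fold, computed per array against the higher of its own signal and the lowest detected signal. Probes were named by the platform table (13793 probes, 13337 genes). Array number limits the precision. Values per array are given for the called members with the largest changes (up to 12 per direction for D8 minus D0, 8 for D2 minus D0 and 5 for D8 minus D2) and for 18 members that stand for pathway steps; list genes are named by size of change, up to 4 per list and direction. The members and lists were chosen with earlier results of these data known. Alternatives were other normalisations, detection filters, slide terms, thresholds, single days and leaving out each array.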

Additional observations from a re-analysis of the deposited data

How the results depend on the processing

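No paired analysis was possible because the labels give no replicate numbers that tie arrays across days, and slide was fitted instead. The number of members called from D0 to D2 was 23, and 15 at an adjusted p of at most 0.01, with 17 to 21 on leaving out single arrays. From D0 to D8 it was 21, and 11 by linear regression on day, with 18 to 21 on leaving out single arrays. From D2 to D8 it was 9, against 5 at an adjusted p of at most 0.01, 5 with scaling to a common median, 3 with only the arrays of the days compared, and 5 to 7 on leaving out single arrays, the lowest without D2 s2A or D8 s1J. From D2 to D4 it was 3, against 9 with the authors' normalised values, 9 with quantile normalisation, 7 with neqc, 8 with a trended and robust fit, 8 and 7 with detection filters at 0.01 and 0.05, 5 on slide 1 alone, 10 with slide as a fixed term and 9 with slide as a random block, and 2 to 3 on leaving out single arrays. No member was called from D4 to D6 or from D6 to D8 in any alternative run. Of the called members, 14 of 23 (D0 to D2), 9 of 21 (D0 to D8), 3 of 9 (D2 to D8) and 2 of 3 (D2 to D4) kept direction and call in all alternatives run. Scaling to a common median ended the calls of Gpx8, Nqo1, Sod3, Txndc12 and Txnip from D0 to D2, of Cat, Gsta5, Prdx5 and Txndc12 from D0 to D8, of Cat, Gclc, Gstt2, Txnip and Txnrd1 from D2 to D8, and of Gstt2 from D2 to D4. Ptges, called higher from D0 to D8 (limma, adjusted p = 0.0126), reversed by linear regression on day (−0.33, adjusted p = 0.885). It was above detection at D2 and not at D0 or D8, so the D8 minus D0 call compares signals below detection. The cause of this and of the other shifts was not tested. Signal over background limits the dim members.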
